A study of Mus musculus with 4 samples.

Results

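The mouse kappa light chain variable segments (Igkv) were described here by family in 2 RNA libraries of cultured B cells. Members were the rows whose symbol begins with Igkv and a number, and the family is the number before the hyphen. This gave 106 segments in 20 families, of 13792 genes with a value in both libraries. Both libraries came from naive B cells of C57BL/6 mice that were infected with a retrovirus and then kept in culture with antibodies to IgM and CD40. The vector RVKM was empty in one library (RVKM-Empty, the empty vector below) and carried Ascl2, a basic helix-loop-helix transcription factor, in the other (RVKM-Ascl2). Both groups thus share the infection, the vector and the stimulation, and the labels do not say how many mice were pooled or whether infected cells were sorted. With 1 library per group, no value has a replicate error and no difference was tested. The 2 chromatin samples of the series were not analysed here. Where a pair of values is given below, the empty-vector library comes first and the Ascl2 library second, and "without Ascl2" means the empty vector.

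A kappa chain is made when recombination joins 1 variable segment to 1 of the joining segments that lie before the constant region Igkc. Each B cell usually keeps a single productive kappa rearrangement, so the RNA level of a segment in a culture follows how many cells chose it and how much kappa RNA each of those cells holds. In bulk RNA, more cells using a segment and more RNA per cell cannot be told apart. Segments are grouped in families by sequence similarity, and the number after the hyphen gives the order along the locus, counted from the joining segments outwards. The variable segments carry their own promoters, and transcription of a rearranged gene is driven by enhancers near the constant region. Antibody-secreting cells hold far more immunoglobulin RNA than resting or activated B cells do.

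All 106 members matched an entry of the RefSeq gene table, on chromosome 6 between 67555636 and 70704177 (GRCm38, the assembly called mm10). That table holds 162 kappa variable entries, and the remainder were not analysed here. Of the members, 99 are annotated as variable segments and 7 as pseudogenes of such segments. The pseudogenes made up 0.677% of the summed kappa values without and 0.73% with Ascl2. Segments of one family share much of their sequence, and how the authors' counting divided shared reads is not given in the sources used here. Family sums are less open to that than single segments, for which every value below is uncertain to this extent.

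The deposited values are an abundance per gene and, judging from low values, are scaled for depth and length. The libraries' values summed to 750692 and 763932, and Ascl2 itself was 0.0809 with the empty vector and 29.4 in the Ascl2 library, as labelled. All 6 B cell markers used, such as Ms4a1 and Pax5, had values, with a summed level of 2316 and 1995. Only Ms4a1 had a higher value with than without Ascl2. Some low kappa segments showed what 1 read is worth. Of 33 under 15 with the empty vector, 5 had whole multiples of 0.525 without and of 0.590 with Ascl2. In 4 others the steps were 0.530 and 0.595. The largest departure from a whole number in these segments was 0.000212 reads. The rest of the 33 were not placed on a step. On these steps, 1 read was worth about 1.12 times as much in the Ascl2 library. This would be the ratio of depths if values were scaled by depth and length alone, which is not known. For a segment on the smaller step, a value of 100 stands for 191 and 169.6 reads, with a counting SD of 7.24% and 7.68%. These errors cover counting only.

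Kappa variable RNA was more abundant in the Ascl2 library, in every family. The summed values were 12654 without and 23539.9 with Ascl2, a ratio of 1.86. As a share of all values, this was 1.69% and 3.08%. Of the 106 segments, 102 had a ratio above 1 and 4 below 1. In all, 105 segments reached 1 in either library. Of these, 42 were at least 2-fold higher with Ascl2 and 1 was at least 2-fold lower, on the scale of log2(value + 1). Over all 12283 genes kept by the same filter, 1.53% were at least 2-fold higher and 0.716% lower, against 40.0% and 0.952% of the kept kappa segments. A log2 ratio above 0 was found in 48.4% of all kept genes and 97.1% of the kept kappa segments. At 1.5-fold, 77 kappa segments were higher and 1 lower, where 5.01% and 4.31% of all genes were. At 3-fold, 7 were higher and none lower, where 0.334% and 0.122% of all genes were. The median log2 ratio was 0.90 over the kept kappa segments, and −0.01 over all kept genes.

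The order of the segments was largely the same in both libraries. Across the 106 segments, which share their libraries, the values had a Spearman rho of 0.98. The single highest segment in both was Igkv10-96, with 9.71% of kappa RNA without and 9.14% with Ascl2. The 10 highest segments held 39.8% and 41.5%, and 8 segments were in the 10 highest of both libraries. The 50 lowest held 6.46% and 6.65%. The effective number of segments, the inverse of the summed squared shares, was 35.9 and 35.3. Kappa RNA was thus spread over the segments to a like degree in both libraries, with no segment taking over the Ascl2 library.

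**Figure D1:**
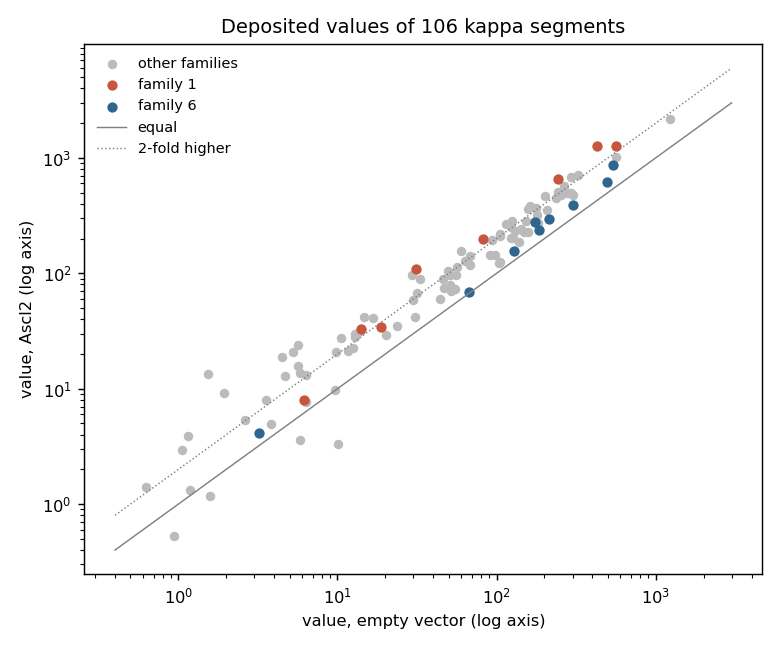
Deposited values of the 106 kappa segments, empty vector on the x axis against Ascl2 on the y axis, both on log axes, 1 point per segment and 1 library per axis. Solid and dotted lines mark equal and 2-fold higher values. Of the points, 102 lie above the line of equal values, and the 9 points of family 6 lie below the dotted line.

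Of the kappa families, 5 carried most of the RNA. With the empty vector, family 6 was the highest, at 2107 or 16.6% of kappa RNA from 9 segments. It was followed by family 4 at 13.1% from 31 segments, family 10 at 12.0% from 3 segments, family 1 at 10.9% from 8 segments and family 8 at 10.8% from 10 segments. With Ascl2, family 1 stood highest at 15.1%, followed by family 4 at 13.3%, family 6 at 12.3%, family 10 at 11.8% and family 8 at 11.4%. Family 1 moved from rank 4 to rank 1 and family 6 from rank 1 to rank 3. The share of family 10 rests on Igkv10-96, which made up 80.6% of the family without and 77.2% with Ascl2. Without that segment, family 10 held 2.59% and 2.98% of kappa RNA.

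The largest gain and the largest loss of share were of nearly the same size. The share of family 1 was 4.18 percentage points higher with Ascl2, and that of family 6 was 4.31 points lower. The share of family 3 was lower as well, at 5.40% without and 4.28% with Ascl2. In the other 17 families the share differed by less than 1 point. Family 4 differed by 0.237 points, family 10 by −0.199, family 12 by 0.0205 and family 9 by 0.0046. The effective number of families was 10.2 and 10.3.

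**Figure D2:**
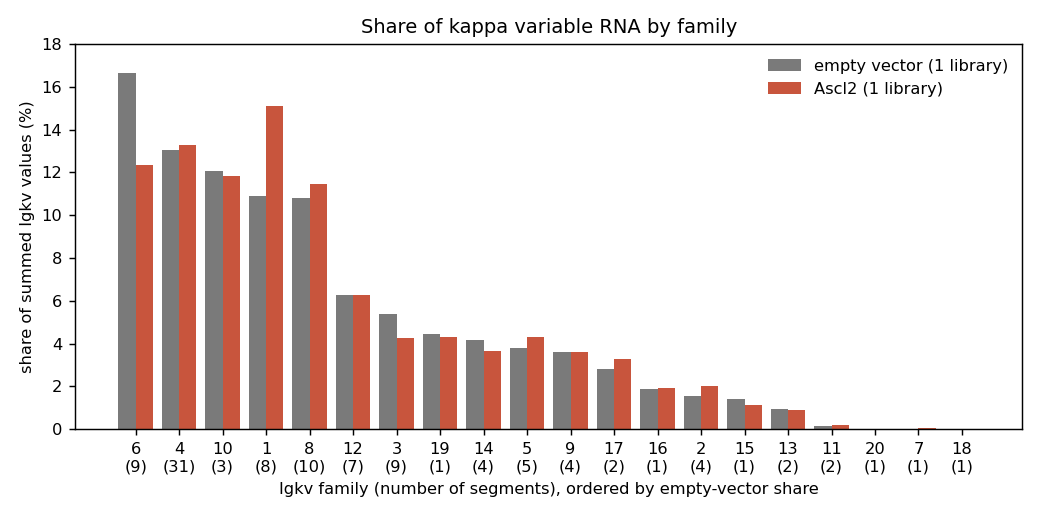
Share of the summed kappa variable values (%) held by each family, ordered by the empty-vector share, with the number of segments in brackets. Grey bars are the empty-vector library and red bars the Ascl2 library, 1 library each, with no error bars. Family 1 goes from 10.9% to 15.1% and family 6 from 16.6% to 12.3%.

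Ratios of the family sums lay between 1.30 and 2.57 in all families but family 7. Family 1 had the highest ratio of any family with more than 1 segment, with sums of 1380.2 and 3553. Next came family 2 at 2.43, family 11 at 2.38, family 17 at 2.16 and family 5 at 2.10. Close to the ratio of the whole locus lay family 8 at 1.97, family 4 at 1.89, family 12 at 1.87, family 9 at 1.86, family 10 at 1.83 and family 13 at 1.80. Lower ratios were those of family 14 at 1.64, family 3 at 1.47 and family 6 at 1.38. The sum of family 11 rests on 1 segment, Igkv11-125, with 93.3% of it with the empty vector. Without that segment the family's ratio is 1.12, from values of 1.19 and 1.33.

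The 6 families with a single segment each ranged widely in level. Igkv19-93 was the second highest segment with the empty vector, at 563, and was 1010.2 with Ascl2. Igkv16-104 was 238 and 449.6, a ratio of 1.89 near that of the locus. Igkv15-103 was 181 and 270.5, a ratio of 1.49. The other 3 were low in both libraries. Igkv20-101-2 was 3.84 and 4.98, and Igkv18-36 was 0.626 and 1.40. Igkv7-33 was 1.53 and 13.4, the highest ratio of any kappa segment, at 8.77. Its empty-vector value is of the size of a few reads, so the ratio is imprecise, and its log2 ratio is 2.51 with a pseudocount of 1 and 1.497 with one of 5.

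Family 6 had uniformly low ratios. Its highest member, Igkv6-15, was 538 without and 861 with Ascl2, a ratio of 1.60. Igkv6-13 was 174 and 279.5, also a ratio of 1.60. Igkv6-23 was 495 and 612, a ratio of 1.24, and so went from rank 5 to rank 9 among all segments. The ratios of the whole family ran from 1.04 to 1.60.

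The rest of family 6 lay within that range. Igkv6-32 was 304 and 392, Igkv6-17 was 214 and 293, and Igkv6-25 was 184 and 238. Igkv6-20 was 128 and 157, and Igkv6-14 was 66.6 and 69.1, the lowest ratio of the family. Igkv6-29, the lowest in level, was 3.19 and 4.12. All 9 members were below the locus ratio of 1.86, and none was 2-fold higher. The ratio of all other families together was 1.96. Of their 97 segments, 71 had a ratio above that of Igkv6-13 and Igkv6-15.

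Family 1 had high ratios in its abundant members. Igkv1-117 was 426 without and 1257 with Ascl2, a ratio of 2.95 that took it from rank 6 to rank 2. Igkv1-135 was 559 and 1255, a ratio of 2.24. Igkv1-110 was 242 and 657, a ratio of 2.72 that took it from rank 17 to rank 8. These 3 segments hold most of the RNA of the family, and each was past 2-fold.

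Among the lesser members, Igkv1-88 was 82.7 and 199, Igkv1-122 was 31.1 and 108, and Igkv1-99 was 14.0 and 32.7. These were also past 2-fold, which makes 6 of 8 in the family. The remaining 2 lie next to each other in the far part of the locus. Igkv1-133 was 18.8 and 34.3, and Igkv1-132 was 6.13 and 8.04. Without Igkv1-135, its largest member, the ratio of the family is 2.80.

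Among 50 segments with a mean value of at least 100, every one had a ratio above 1, beside 48.4% of kept genes of any level. The ratios of the 50 segments ran from 1.17 to 2.95 with a median of 1.80. The lowest in this set were Igkv3-7 at 1.17, from values of 104 and 122, and Igkv3-12 at 1.20, from 105 and 126. After these came Igkv6-20, Igkv6-23, Igkv6-25 and Igkv6-32. The 2 highest were Igkv1-117 and Igkv1-110, and below them Igkv2-137 at 2.60, from 59.5 and 155, and Igkv1-88 at 2.41. The ratios of Igkv6-23 and Igkv1-117 differ by several times the counting SD given above. They were picked from near the 2 ends of this order, so a wide gap follows in part from the choice. Neither segment was placed on a step. That SD is for a single value of 100, and a difference between 2 ratios adds the errors of all their values. The spread between cultures was not measured.

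**Figure D3:**
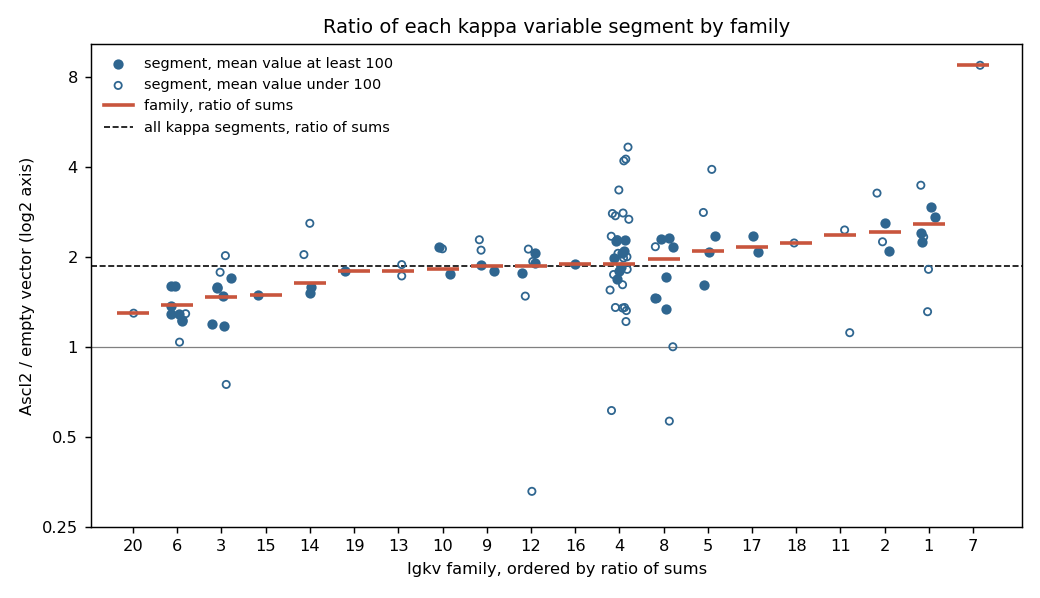
Ratio of the Ascl2 to the empty-vector value for each kappa segment (log2 axis), by family in order of the ratio of sums. Filled points have a mean value of at least 100, open points less, red bars are ratios of family sums and the dashed line is the locus ratio of 1.86. The 9 points of family 6 lie between 1.04 and 1.60, and the widest spreads are among open points.

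Family 4, the largest by number, was mixed. Of its 31 segments, 13 were at least 2-fold higher and 18 were between the limits, and the ratios ran from 0.613 to 4.67. Its highest member, Igkv4-59, was 292 without and 492 with Ascl2. Igkv4-57 was 157 and 357, a ratio of 2.28, while Igkv4-91 was 130.3 and 234, a ratio of 1.80. Both extremes of the family were low segments. Igkv4-62 was 1.95 and 9.10, and Igkv4-81 was 5.83 and 3.57. The values of Igkv4-81 are 11 and 6 reads, with exact Poisson 95% intervals of 5.49 to 19.7 and 2.20 to 13.1. The counts are not adjusted for the different worth of 1 read in the 2 libraries.

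Family 3 lies nearest the joining segments, with numbers from 1 to 12, and had none of its 9 members past 2-fold. Its highest members were Igkv3-4, at 142 without and 241 with Ascl2, and Igkv3-5, at 127 and 202. Igkv3-2 was 97.7 and 144, and Igkv3-10 was 90.8 and 143. Igkv3-3, one of the 4 segments with a ratio below 1, was 1.57 and 1.18, which is 3 and 2 reads. Igkv3-9 was 2.62 and 5.31, or 5 and 9 reads.

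Members of families 6 and 8 alternate along one stretch of the locus, where the family sums had different ratios. Between segment numbers 13 and 32 there were 9 segments of each. The sums of family 8 there were 1357 and 2664, a ratio of 1.96, against 1.38 for family 6. Igkv8-24 was 326 without and 707 with Ascl2, a ratio of 2.17. It lies between Igkv6-23, at 1.24, and Igkv6-25, at 1.29. Igkv8-27 was 202 and 470.0, a ratio of 2.32, and Igkv8-30 was 296 and 681, a ratio of 2.30.

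Not all of family 8 in that stretch was high. Igkv8-28 was 157 and 228, and Igkv8-21 was 139 and 186, a ratio of 1.34 within the range of family 6. Igkv8-19 was 206 and 353, a ratio of 1.71. In this stretch, 4 of the 9 family 8 segments had a ratio above the highest of family 6, and their median ratio was 1.45 against 1.29. Igkv8-26 was 0.943 and 0.532, the only kappa segment under 1 in both libraries.

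Along the whole locus, ratios tended to be higher far from the joining segments. The segment numbers were divided into 4 nearly equal ranges. The sum of the 29 segments numbered 1 to 34 had a ratio of 1.59, the 26 numbered 35 to 68 one of 1.94, the 29 numbered 69 to 103 one of 1.81, and the 22 numbered 104 to 137 one of 2.24. Of these groups, 5, 13, 10 and 14 segments were at least 2-fold higher. Across the 105 kept segments, which share their libraries, the log2 ratio and the segment number had a Spearman rho of 0.38 and a Pearson r of 0.30. Over the 68 that reached 50 in either library, rho was 0.52.

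In the summed values, that trend was weaker without families 1 and 6. They had the largest gain and the largest loss of share, so leaving them out was bound to weaken it. Family 6 lies at numbers 13 to 32 and family 1 at 88 to 135. Without both, the sums of the 4 groups had ratios of 1.81, 1.94, 1.79 and 1.97, and rho over 88 segments was 0.25. The median log2 ratios of the kept segments changed less. With all families they were 0.55 in the near group, numbered 1 to 34, and 1.06 in the far group, numbered 104 to 137. Without families 1 and 6 they were 0.66 and 1.03. Then 5 of 20 near segments and 10 of 16 far segments were at least 2-fold higher. With all families, the far group held 23.1% of kappa RNA without and 27.8% with Ascl2, and the near group 32.9% and 28.1%. The log2 ratio hardly went with the level of a segment, with a rho of 0.05 against the mean value. Orientation of the segments was not analysed here.

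**Figure D4:**
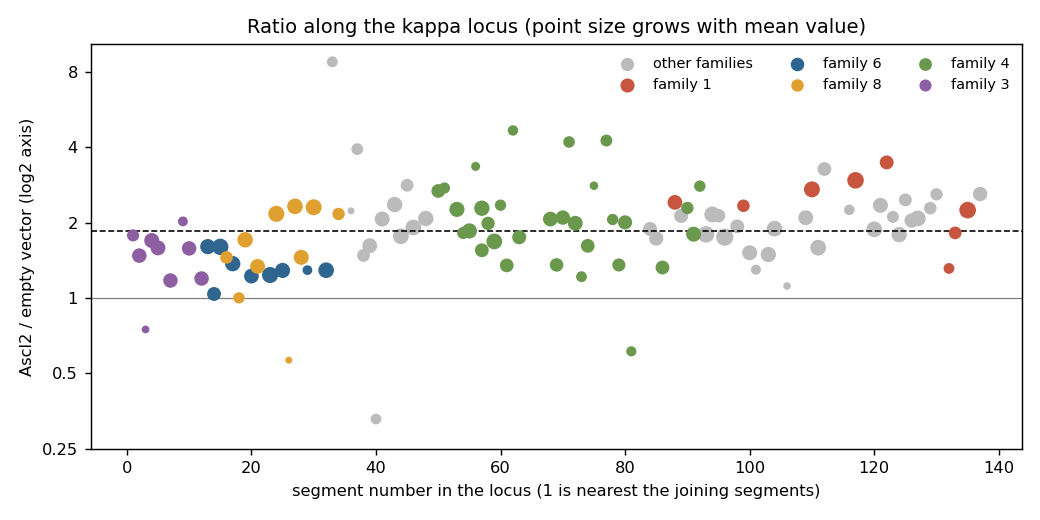
Ratio of the Ascl2 to the empty-vector value (log2 axis) against the segment number, counted from the joining segments, 1 point per segment with point size growing with mean value. Colours mark families 1, 3, 4, 6 and 8, and the dashed line is the locus ratio of 1.86. Family 8 and family 6 alternate between numbers 13 and 32, and family 1 lies at numbers from 88 to 135.

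Of the 10 highest log2 ratios among segments that reached 5 in either library, 3 belonged to family 1, 3 to family 4, 2 to family 5, 1 to family 2 and 1 to family 7. In 5 of them the empty-vector value was under 10, and the other 5 include Igkv1-117 and Igkv1-110. Igkv4-77, annotated as a pseudogene, was 5.61 and 23.9, and Igkv4-71 was 4.49 and 18.8. Igkv5-37 was 5.25 and 20.6, which is 10 reads (95% interval 4.80 to 18.4) and 35 reads (24.4 to 48.7). Igkv2-112 was 29.4 and 96.2, and Igkv5-45 was 14.7 and 41.4.

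Of the 10 lowest, 3 belonged to family 6, 2 to family 3 and 2 to family 4, and families 1, 8 and 12 had 1 each. In 4 of them the empty-vector value was under 10. The only segment more than 2-fold lower with Ascl2 was Igkv12-40, annotated as a pseudogene, at 10.02 and 3.29. With a pseudocount of 5 it was no longer past 2-fold. The abundant members of its family were higher with Ascl2. Igkv12-44 was 281 and 495, Igkv12-46 was 261 and 499, and Igkv12-41 was 123 and 254. Igkv8-18 was level at 9.71 and 9.73.

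The other families had these values. In family 10, Igkv10-96 was 1229 and 2152, and Igkv10-94, which lies close by in the locus, was 264 and 569.6. In family 9, Igkv9-120 was 254 and 477, and the 4 ratios of the family ran only from 1.79 to 2.29. In family 14, Igkv14-111 was 302 and 479.7, a ratio of 1.59, and the family's 4 ratios ran from 1.52 to 2.59. In family 17, Igkv17-127 was 242 and 504, and both segments of the family were past 2-fold. In family 5, Igkv5-48 was 178 and 369, 4 of its 5 members were past 2-fold, and its ratios ran from 1.62 to 3.93.

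Heavy chain variable segments, the partners of the kappa segments in the antibody, differed to a like degree. Their 115 rows had a summed ratio of 1.94, and 42 of 113 kept segments, or 37.2%, were past 2-fold. The heavy chain sum was 0.738 times the kappa sum with the empty vector and 0.768 times with Ascl2. The lambda variable segments had a higher ratio of 2.77, from sums of 755 and 2090.1. Kappa variable RNA was 16.8 times lambda variable RNA with the empty vector and 11.3 times with Ascl2.

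Igkc, the kappa constant region, differed less than the variable sum, at 10479 and 17438, a ratio of 1.66. The variable sum was 1.21 times the Igkc value with the empty vector and 1.35 times with Ascl2, both on the length-scaled values. For the lambda constant genes the ratio was 1.09, and the lambda variable sum was 0.308 and 0.779 times the constant sum. The kappa joining segments were looked up, but none was among the genes with a value in both libraries.

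Genes that act on the kappa locus were looked up as well. Of 23 transcription factors of the kappa promoters, enhancers and locus, none was past 2-fold in either direction, and the median log2 ratio was 0.04. With 1.53% of all genes higher and 0.716% lower, a count of 0 is near the background. Pou2af1, the coactivator that binds with Oct factors at immunoglobulin promoters, was 682 without and 805 with Ascl2. Tcf3, an E protein that binds the kappa enhancers, was 113 and 80.7. Spi1, which encodes PU.1 and acts with Irf4 at the kappa enhancer, was 21.5 and 15.4. Of 16 recombination genes listed, 9 were measured and none was past 2-fold, again near the background. Vpreb3, a surrogate light chain related gene, was 46.9 and 32.3, and Dclre1c, the nuclease Artemis, was 10.9 and 14.5.

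Partner chains of the receptor had values in both directions. Cd79a and Cd79b, the signalling chains of the B cell receptor, were 665 and 492, and 748 and 626. Of 10 kept genes of this list, only Jchain was past 2-fold higher, and none was past 2-fold lower, beside 1.53% and 0.716% of all genes. Ighm, the IgM heavy chain, had a ratio of 1.85, and Ighg3 was 54.4 and 80.1. Ighe, at 158 and 181, and Ighg2b, at 25.8 and 34.6, were higher as well. Lower were Ighg1 at 1189 and 946 and Ighd at 55.6 and 46.2, and Ighg2c was about level at 3.04 and 2.96. Of the 10 kept genes, 5 had a log2 ratio above 0, beside 48.4% of all kept genes.

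Plasma cell and secretion genes mostly had a log2 ratio above 0. Of 20 kept members, 18 had a log2 ratio above 0, 2 were past 2-fold higher and none lower, with a median of 0.33. Over all kept genes, 48.4% had a log2 ratio above 0, 1.53% were past 2-fold higher and 0.716% lower. Prdm1, the gene of Blimp-1 and a driver of plasma cell fate, was 3.10 and 9.23, Jchain was 113 and 301.2, and Fkbp11, a folding enzyme of secretory cells, was 6.89 and 13.7. Sdc1, the surface marker of plasma cells, was 2.99 and 2.37. The summed level of 5 measured plasma cell markers was 887 and 1147, and Jchain had the largest difference in value among them. Of 7 T cell markers only Lck was measured, at 21.7 and 17.8. The 6 measured myeloid markers summed to 45.2 and 50.1, and 5 of them had a log2 ratio above 0. The part of any of these in the kappa ratios was not tested.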

How the data were processed

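RNA from 2 libraries was used, 1 per group, grouped by sample title. The authors deposited 1 signal value per gene, scaled for depth and length as far as its low values allow a judgement. Not given in the sources used here are whether it is FPKM or TPM, the quantifier, the gene models and the strandedness. The submitters' processing notes name mm10, Trim Galore, Bowtie2, Picard and MACS2, with no versions and no role. No count model fits such values, and single libraries allow no test, so none was run.

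From the values, family sums, shares of the kappa sum and Ascl2 to empty-vector ratios were computed in Python 3.11.15 with pandas 2.3.3. Log2 ratios used a pseudocount of 1, which understates differences of low segments, and a filter of at least 1 in either library. Positions are from RefSeq on GRCm38.p6. Reads per step were found by searching for a common divisor of kappa values under 15 with the empty vector, with a tolerance of 0.02 reads, in both libraries. The search covered fixed, narrow ranges of the step and of the ratio of steps between libraries. Intervals are exact Poisson. No promoter or other sequence of these segments was used.

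The families, the members and the gene lists were chosen with earlier results of these data known. Segments named were the largest of each family, the 10 largest, and the 10 highest and 10 lowest log2 ratios among those reaching 5. From each gene list the members past 2-fold and the 3 with the largest absolute log2 ratios could be named. Other members of families 1, 3, 4, 6, 8 and 12, and Igkv2-137, were named after their values were seen. So were the genes Pou2af1, Sdc1, Ighg1, Ighd, Ighe, Ighg2b, Ighg2c, Ighg3, Cd79a, Cd79b, Lck, Ms4a1 and Pax5. One marker gene is left out and not reported here. Ratios of large family sums were checked on simulated data with known ratios, with more reads per segment than these libraries hold. Fold calls were checked on differences added without noise. The search for reads per step was not checked on simulated data.

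Alternatives were a pseudocount of 0.1 or 5, a filter of 5 or none, thresholds of 1.5-fold and 3-fold, 3 rescalings of the Ascl2 library, sums without the largest segment or family, medians of segment ratios, and equal weights.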

Additional observations from a re-analysis of the deposited data

How the results depend on the processing

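No paired analysis was possible because each group has 1 library and no test was run. A ratio or share counted here as different when it moved by at least 1.5 times. The kappa ratio stayed between 1.83 and 1.98 in 6 alternatives, and all 20 family ratios stayed above 1 under the 3 rescalings of the Ascl2 library. In these, the median log2 ratio of all genes went from −0.04 to 0.07. The number of segments at least 2-fold higher was between 31 and 52 with other pseudocounts, filters and rescalings, 77 at 1.5-fold (5.01% of all genes) and 7 at 3-fold (0.334%). The number lower was 0 with a pseudocount of 5 and 0 at 3-fold, in place of 1. Without its largest segment, family 11 had a ratio of 1.12, and single-segment families give no such value.

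Without Igkv10-96 the share of family 10 was 2.59% without and 2.98% with Ascl2. Weighting every segment equally makes shares follow the number of segments by construction. With the empty vector the shares that moved were then 6.46% for family 1, 3.03% for family 2, 9.90% for family 3, 27.6% for family 4, 10.3% for family 6, 0.272% for family 7, 2.65% for family 10, 2.02% for family 11, 1.89% for family 13, 0.918% for family 16, 1.66% for family 17, 0.822% for family 18, 0.950% for family 19 and 1.16% for family 20. With Ascl2 they were, in the same order of families, 8.14%, 4.18%, 7.72%, 30.2%, 7.48%, 1.31%, 2.93%, 1.81%, 1.88%, 0.957%, 2.01%, 1.01%, 0.940% and 0.826%. Under equal weights the share of family 1 was again higher with Ascl2 and that of family 6 lower, but the direction turned in 5 families. These were family 8 (10.6% and 8.80%), family 12 (7.56% and 6.08%) and family 11, which became lower, and family 10 and family 14 (3.69% and 3.82%), which became higher. With a pseudocount of 5, log2 ratios were 0.53 for Igkv4-56, 1.02 for Igkv4-62 and 1.497 for Igkv7-33. Depth limits segments under about 10, where a value stands for few reads.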
